A study of Mus musculus with 12 samples.

Results

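UCPRP was compared with UCS in BAK-injured mouse corneas, treated with one of these cord blood-derived biologics each. The comparison was set by the labels: it takes the 3 UCPRP libraries and the 3 UCS libraries, 6 of the 12 libraries of the series, and all genes, of which 16124 of 19702 had enough counts to test. All 6 libraries are whole corneas injured with benzalkonium chloride (BAK). Each eye had received a daily drop of 0.2% BAK (5 µl) over 14 days, and treated eyes 3 daily drops of their biologic at 20% (5 µl) over 10 days. A library pooled 6 corneas of 3 mice, so each replicate is a pool. The labels do not spell out the names UCS and UCPRP. Uninjured Control corneas and injured Vehicle corneas, for which no biologic is listed (3 libraries each), are given beside the treated groups as reference. The sources used here do not state strain, sex or age of the mice, the hour of harvest, or whether BAK had ended before the biologic was given.

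The cornea is covered by a stratified epithelium of limbal origin that carries membrane-bound mucins, rests on a stroma of keratocytes, and is densely supplied by sensory nerves of the trigeminal ganglion. BAK is a detergent-like preservative of eye drops that strips surface cells, inflames the surface and damages nerve endings. Drops made from blood, such as serum and platelet preparations, are used on damaged surfaces because they carry growth factors, and genes of the growth factor response, of the barrier and of inflammation are therefore the ones followed here.

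Estimated counts per library ran from 18.55 M to 19.18 M in the 6 libraries, and 17701 to 17797 genes were detected. Correlations of log2 CPM (counts per 1 M counts) between libraries of a group were 0.972 to 0.976 in UCS and 0.96 to 0.972 in UCPRP. A count of 3, the limit a count of 0 allows, stood for 0.153 to 0.161 CPM, which covers counting error only. Values are given below as CPM in the order of replicates 1, 2 and 3, and differences as log2 fold changes, UCPRP minus UCS, with 95% intervals from edgeR's quasi-likelihood fit. A number in parentheses after a gene is its log2 fold change, and a range after it is the interval.

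The label of cornea was checked against its markers. Krt5, the keratin of basal epithelium, stood at 6535, 7119.7 and 6108 CPM in UCS and 8053, 8019 and 5820.2 CPM in UCPRP. Pax6, the eye transcription factor, stood at 576, 542 and 480.1 CPM in UCS and 528, 454 and 459 CPM in UCPRP, and the keratocyte proteoglycan Kera at 216, 185 and 145 CPM in UCS and 97.1, 190.0 and 124 CPM in UCPRP. Krt12, the keratin of differentiated corneal epithelium, was nearly lost in both treated groups: 18.9, 40.3 and 8.68 CPM in UCS and 186, 7.55 and 3.29 CPM in UCPRP, against a mean of 22559 ± 9055 CPM in Control and 13.4 ± 9.15 CPM in Vehicle. The one higher library, UCPRP replicate 1, also held Slurp1 at 6.03 CPM and Lypd2 at 8.05 CPM, Ly6-type proteins of surface epithelium, where the other 5 libraries stood at 0 to 0.638 CPM for Slurp1 and at 0 to 0.589 CPM for Lypd2. The log2 fold change of Krt12 was 1.53 (−1.03 to 4.10) with that library and −2.06 without it. No direction is therefore read for these 3 surface genes.

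Single libraries stood apart in 4 other ways. Lens transcripts were high in UCPRP replicate 3 and UCS replicate 2: Cryaa, a lens crystallin, stood at 13.6, 6679 and 20.99 CPM in UCS and 1625, 113 and 14988 CPM in UCPRP. Clock genes set UCS replicate 1 apart, with Dbp at 23.96, 161 and 139 CPM in UCS and 212, 198 and 141 CPM in UCPRP. Genes induced by interferon and genes of T cells were high in UCS replicate 3, with Tgtp2, an interferon-inducible GTPase, at 11.8, 15.4 and 66.1 CPM in UCS and 10.9, 3.59 and 9.92 CPM in UCPRP. Skeletal muscle transcripts were low in UCPRP replicate 3 and UCS replicate 3, with Myl1, a muscle myosin light chain, at 58.7, 65.8 and 12.6 CPM in UCS and 133, 80.8 and 0.771 CPM in UCPRP. Retinal transcripts were present in all 6 libraries, with a sum over 30 retina genes of 6327, 7977 and 12455 CPM in UCS and 6561, 15395 and 19037 CPM in UCPRP. In whole tissue, fewer cells of a type and less RNA per cell cannot be told apart.

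**Figure D1:**
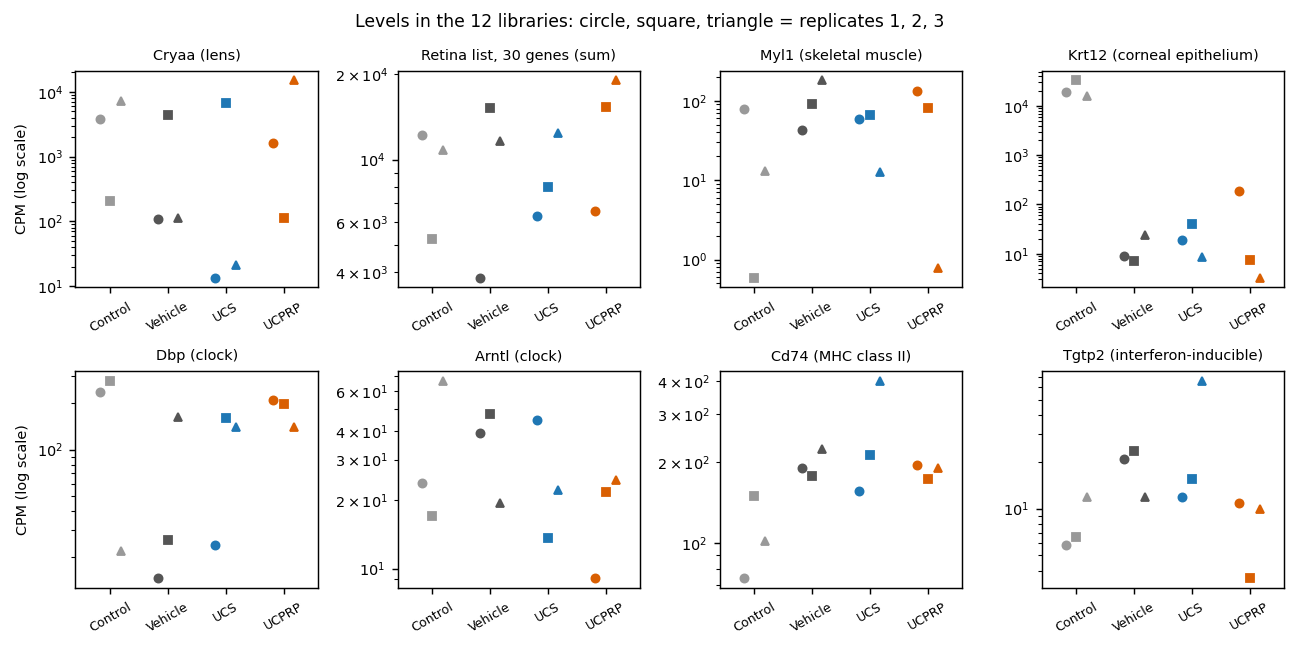
CPM on a log scale in each of the 12 libraries for 7 genes, and summed over the retina list, that mark lens, retina, skeletal muscle, corneal epithelium, the clock, antigen presentation and interferon response; circles, squares and triangles are replicates 1, 2 and 3. Cryaa spans 13.6 to 14988 CPM over the 6 treated libraries, Dbp is low in UCS replicate 1 (24.0 CPM), and Tgtp2 is highest in UCS replicate 3 (66.1 CPM).

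Over all genes, no difference between UCPRP and UCS passed the test. edgeR called 0 of 16124 genes (0%) at an adjusted p under 0.05, the smallest adjusted p being 0.985, and DESeq2 and limma-voom called 0 as well. At an unadjusted p under 0.05 there were 393 genes, of which 138 were higher in UCPRP (0.856%) and 255 lower (1.58%), where 806 are given by chance. The 6 libraries fitted alone gave 778 such genes, where 789 are given by chance. All 3 UCPRP libraries lay above all 3 UCS libraries for 793 genes (4.92%) and below them for 924 (5.73%). The median log2 fold change of all genes was 0.02, with quartiles of −0.10 and 0.15, and 264 genes differed by at least 1 on the log2 scale, 143 of them higher and 121 lower in UCPRP.

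The intervals give the size of difference these pools could hold. Their widths rest on the spread within all 4 groups of the 12 libraries, Control and Vehicle included. For 12759 of 16121 genes with an interval (79.1%) the whole 95% interval lay within a 2-fold change in either direction. The share was 93.7% of genes with a mean of 100 CPM or more, 91.6% of those from 10 to under 100 CPM, 60.3% from 1 to under 10 CPM, and 10% below 1 CPM. The median half-width of the interval was 0.38 on the log2 scale over all genes, and 0.31 for genes from 10 to under 100 CPM. Below 1 CPM most intervals therefore reached past a 2-fold change.

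**Figure D2:**
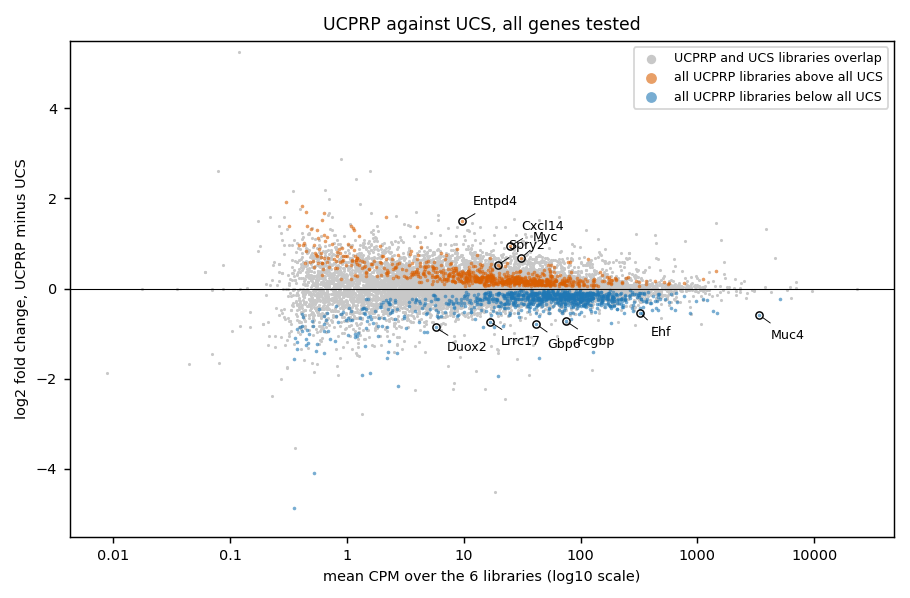
Log2 fold change, UCPRP minus UCS, of the genes tested against their mean CPM over the 6 libraries (log10 scale; genes at 0 in all 6 are not drawn). Orange marks the 793 genes whose UCPRP libraries all lie above the UCS libraries, blue the 924 genes below, grey the rest; 10 of the genes ranked first are named.

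The genes ranked first by unadjusted p that did not overlap between the groups are described next, as values and not as changes, since their adjusted p was 0.985 by edgeR's quasi-likelihood test. Among those with the higher mean in UCPRP, Cxcl14 encodes a chemokine made by resting epithelium (chromosome 13, 56288643 to 56296811). It stood at 13.9, 20.99 and 16.4 CPM in UCS and 25.7, 32.1 and 40.4 CPM in UCPRP, a log2 fold change of 0.94 (0.53 to 1.34). The Vehicle mean was 26.01 ± 3.77 CPM and the Control mean 15.9 ± 0.645 CPM, so the UCS mean lay near that of Control and the UCPRP mean above that of Vehicle. Myc, the growth-promoting transcription factor (chromosome 15, 61985341 to 61990361), stood at 22.6, 22.5 and 26.5 CPM in UCS and 40.01, 35.7 and 39.9 CPM in UCPRP, a log2 fold change of 0.69 (0.36 to 1.02). Every UCPRP library lay above every Vehicle library for Myc, and every UCS library below (31.8 ± 3.91 CPM mean in Vehicle). Spry2, an inhibitor of receptor tyrosine kinase signalling, stood at 13.8, 16.9 and 17.3 CPM in UCS and 20.5, 22.9 and 25.6 CPM in UCPRP, a log2 fold change of 0.52 (0.20 to 0.85).

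The other 7 genes of the higher side were less plainly linked to the surface. Entpd4, a nucleoside diphosphatase of the Golgi, had the widest difference, 3.08, 3.11 and 8.94 CPM in UCS and 18.7, 8.98 and 14.96 CPM in UCPRP (1.49, 0.49 to 2.49); its reads may be shared with a near-identical neighbour, so its level is uncertain. Irf2bp1, a corepressor that binds an interferon regulatory factor, had a log2 fold change of 0.34, and the zinc finger genes Zfp286 and Zfp787 had 0.57 and 0.34. St6galnac6, a sialyltransferase, Tmem9 of the lysosome and Scmh1, a Polycomb protein, had 0.39, 0.36 and 0.24. Scmh1 shows how narrow the groups could be, with 36.9, 37.2 and 36.97 CPM in UCS and 44.2, 42.00 and 44.6 CPM in UCPRP.

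The lower side of the ranking held several genes of surface epithelium. Ehf, an ETS transcription factor of stratified and simple epithelia (chromosome 2, 103263431 to 103303275), stood at 381, 342 and 414 CPM in UCS and 265, 268 and 256 CPM in UCPRP, a log2 fold change of −0.53 (−0.87 to −0.19). UCPRP was the lowest of the 4 groups for Ehf, whose mean was 327 ± 72.1 CPM in Vehicle and 451 ± 42.5 CPM in Control. Muc4, a membrane-bound mucin of the corneal and conjunctival surface (chromosome 16, 32735886 to 32782391) stood at 4489.7, 3590.4 and 4204 CPM in UCS and 2766, 2463 and 2929.6 CPM in UCPRP, a log2 fold change of −0.59 (−0.99 to −0.19). The Vehicle mean of Muc4 was 3239 ± 672 CPM and the Control mean 2987 ± 216 CPM, so UCS had the highest of the 4 means and UCPRP the lowest. Fcgbp, a protein secreted with goblet cell mucus, stood at 87.3, 76.8 and 115 CPM in UCS and 65.1, 49.8 and 54.3 CPM in UCPRP (−0.72, −1.22 to −0.23), and Duox2, which makes hydrogen peroxide at epithelial surfaces, at 7.598, 6.05 and 8.53 CPM in UCS and 4.695, 4.67 and 2.88 CPM in UCPRP (−0.86, −1.45 to −0.26). Mst1r, the receptor for macrophage-stimulating protein, had −0.41 and Rnf43, which removes Wnt receptors from the cell surface, −0.46.

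The remaining members of the lower side were Slc35a3, a nucleotide sugar transporter (−0.31), the leucine-rich repeat gene Lrrc17 (−0.73), and a pair of genes tied to immune cells. Gbp6, an interferon-inducible GTPase, stood at 42.98, 40.01 and 76.04 CPM in UCS and 38.2, 24.3 and 29.7 CPM in UCPRP, and Sp140, a nuclear body protein of leukocytes, at 17.6, 17.1 and 35.6 CPM in UCS and 15.1, 10.9 and 13.01 CPM in UCPRP. Both were highest in UCS replicate 3, and the log2 fold change of Gbp6 went from −0.79 to −0.43 without that library. All 20 genes ranked first kept their sign under each of 18 alternative settings, with a smallest adjusted p of 0.164 (Cxcl14, DESeq2). The sign of these genes is no support, since the ranking chose them for it.

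**Figure D3:**
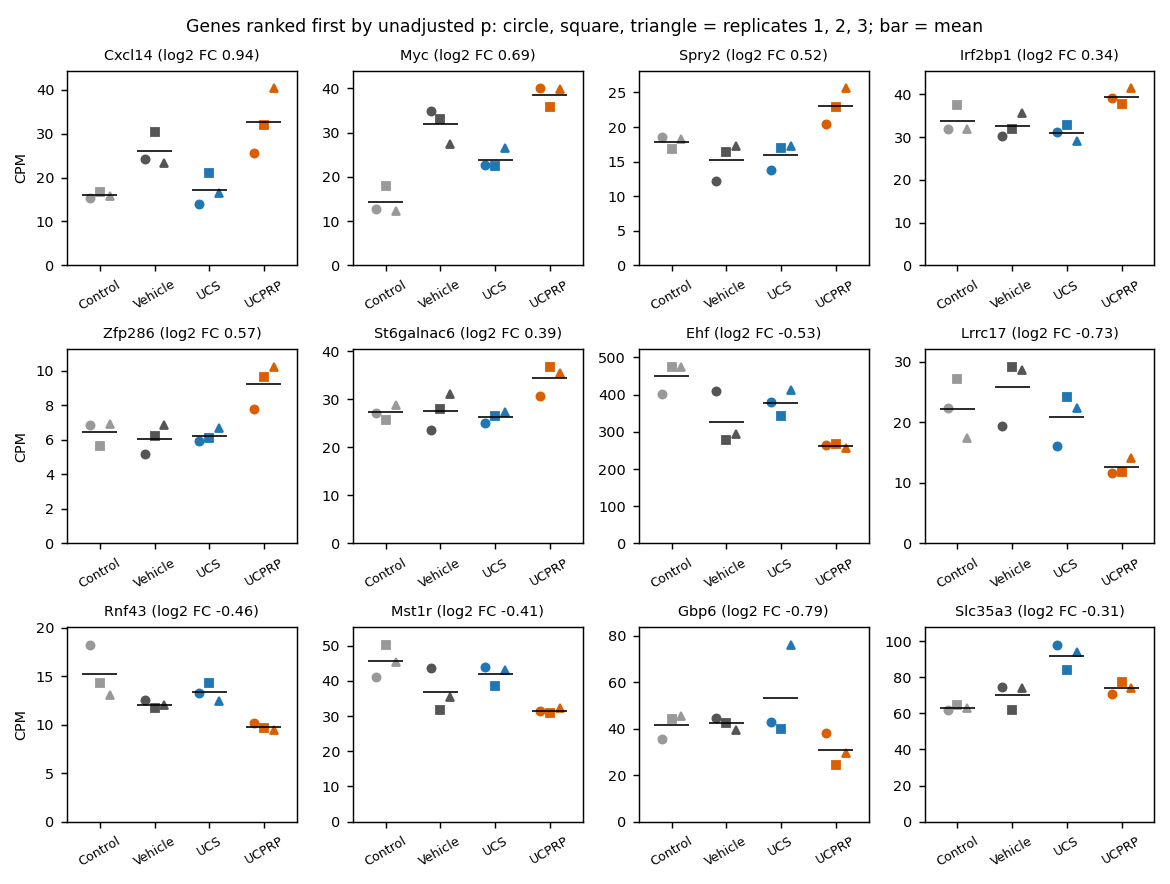
CPM in each library of the 4 groups for the 6 genes ranked first in each direction of UCPRP against UCS; circles, squares and triangles are replicates 1, 2 and 3, and bars are group means. Cxcl14 and Myc are higher in all 3 UCPRP libraries than in all 3 UCS libraries, Ehf and Mst1r lower in all 3.

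Gene groups are described next by counts of their members and by medians, beside those of all genes. Of the 16124 genes tested 8724 had a higher and 7397 a lower mean in UCPRP, and the shares to read counts of non-overlapping members against are 4.92% above and 5.73% below. Beyond the genes that the naming rule gave, members are examples chosen after their values were seen. Membrane mucins and barrier genes had lower means in UCPRP in 18 of 20 cases. Of these 20 genes 6 (30%) lay below in all 3 UCPRP libraries and none above. Their median was −0.24 against 0.02 for all genes, it ran from −0.33 to −0.19 with 1 library left out, and was −0.12 with the lens list as a covariate and −0.10 with the clock, lens and retina covariates together. None of the 20 passed the test. Most lens, retina and clock genes themselves differed in mean between UCPRP and UCS in 1 direction per list. Here and below, covariates built from them therefore take up part of the group difference. Besides Muc4, the non-overlapping members were the membrane mucins Muc16 (−0.96, −1.63 to −0.30), Muc20 (−0.48) and Muc15 (−0.46), the tight junction scaffold Tjp1 (−0.27) and the junctional adhesion molecule F11r (−0.23). Muc16, the large mucin of the surface glycocalyx, stood at 7.86, 4.66 and 5.62 CPM in UCS and 2.51, 3.08 and 3.701 CPM in UCPRP, or 345 counts over UCS and 179 over UCPRP. Of the tight junction claudins, Cldn1 (−0.20) and Cldn7 (−0.22) lay near the list median, and Cldn4 stood at 0.13. Summed over the list, levels were 6964 to 8622 CPM in UCS and 5617 to 6295 CPM in UCPRP, while Vehicle spanned 5253 to 7296 CPM. Much of that sum was Muc4: without it the sums were 4132, 3373 and 3472 CPM in UCS and 3529, 3154 and 2793 CPM in UCPRP, and the groups overlapped.

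Desmosomes, the junctions that anchor keratin filaments between epithelial cells, showed a similar order. Means were lower in UCPRP for 13 of 16 genes, 6 of them (37.5%) below in all 3 libraries, with a median of −0.16 and none called. The median was −0.28 without UCPRP replicate 1, −0.09 without UCPRP replicate 3, −0.07 with the lens or the retina list as a covariate, and −0.04 with the 3 covariates together. The 6 were the cadherins Dsc1 (−1.03), Dsg3 (−0.55), Dsc2 (−0.42) and Dsc3 (−0.36), the keratin linker Dsp (−0.28) and the envelope protein Ppl (−0.26). Dsc2 stood at 724, 630.2 and 702 CPM in UCS and 536, 469 and 536 CPM in UCPRP. The reads of Dsg1a and Dsg1b may be shared with each other, and the plaque gene Jup stood near 0 (0.09).

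The medians of the wider epithelial lists moved with single libraries. Of 24 corneal epithelium genes 11 had higher and 13 lower means, with a median of −0.03 that was −0.24 without UCPRP replicate 1, the library with the most Krt12. None lay above in all 3 UCPRP libraries and 4 (16.7%) below, namely Muc16, Muc4, Ehf and Klf5, a Krüppel-like factor of epithelial renewal, at −0.39. Aldh3a1, the aldehyde dehydrogenase that is a main corneal protein, stood at 2150.3, 1685 and 965 CPM in UCS and 2172, 2036 and 1409 CPM in UCPRP. Limbal progenitor genes had a median of 0.02 over 13 genes. Trp63, the transcription factor of epithelial stem cells, was the 1 non-overlapping member (124, 112 and 128 CPM in UCS and 91.97, 88.6 and 99.6 CPM in UCPRP, −0.38). Wound and stress keratins had a median of −0.03 over 14 genes (−0.13 without UCPRP replicate 1 and 0.13 without UCPRP replicate 3), with Krt16 at 0.88 (−0.38 to 2.14) and Krt6b at −0.23. Epidermal keratinization genes were lower in 14 of 21 cases (median −0.14, but 0.02 without UCS replicate 1 or without UCPRP replicate 3, and −0.26 without UCPRP replicate 1), with Krt10, the keratin of epidermal differentiation, at −0.29 (−0.98 to 0.39).

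Goblet cell genes had lower means in UCPRP in most cases. Of 17 conjunctiva and goblet cell genes 14 were lower and 1, Fcgbp, did not overlap (5.88%, near the 5.73% of all genes). Muc5ac, the gel-forming mucin of goblet cells, stood at 437, 244 and 444 CPM in UCS and 163, 174 and 304 CPM in UCPRP, a log2 fold change of −0.81 (−1.68 to 0.05); its Vehicle mean was 544 ± 101 CPM and its Control mean 1.23 ± 0.989 CPM. Muc5b had −0.57, the antibody transporter Pigr −1.15, the zymogen granule protein Gp2 −0.70 and Spdef, the transcription factor of goblet cells, −0.44. The conjunctival keratins Krt13 and Krt4 were near 0 (−0.06 and 0.03). The list median was −0.38; it was −0.16 without UCS replicate 3, −0.59 without UCS replicate 2, and 0.01 with the lens list as a covariate.

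Interferon-stimulated genes encode antiviral and antigen-handling proteins and share a promoter element to which interferon-activated transcription factors bind. The element was searched as GAAANNGAAA on both strands in RefSeq promoters (GRCm38.p6, 250 bases before the start). It was found in 10 of the 17 list members with a promoter in that table (58.8%), against 936 of 27025 genes of the table (3.46%). Since such genes are known to share the element, that share says nothing on UCPRP against UCS. The 150 bases before the start are shown for 3 members with the element, since every member of the group had its lower mean in UCPRP; capitals mark the matches, and overlapping matches are run together. They lie at chr4:156200819-156200968 (minus strand), chr19:34640739-34640888 (plus strand) and chr12:26456453-26456602 (minus strand). A match is a run of letters and does not show that a factor binds there.
Isg15: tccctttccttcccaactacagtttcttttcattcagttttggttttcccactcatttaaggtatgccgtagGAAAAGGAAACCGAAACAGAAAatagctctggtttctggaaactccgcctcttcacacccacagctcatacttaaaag
Ifit1: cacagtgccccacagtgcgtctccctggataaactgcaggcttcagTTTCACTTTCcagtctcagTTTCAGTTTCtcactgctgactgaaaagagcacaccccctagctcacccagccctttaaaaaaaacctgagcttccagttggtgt
Rsad2: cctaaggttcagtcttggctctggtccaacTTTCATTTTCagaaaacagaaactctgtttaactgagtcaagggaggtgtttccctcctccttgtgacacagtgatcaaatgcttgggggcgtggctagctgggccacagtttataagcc

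All 21 tested interferon-stimulated genes had a lower mean in UCPRP. Of these, 3 (14.3%) were below in all 3 libraries (Gbp2, Rsad2 and Usp18), against 5.73% of all genes, and none was called. Isg15, a ubiquitin-like antiviral protein, stood at 40.4, 31.9 and 45.2 CPM in UCS and 38.5, 23.4 and 45.03 CPM in UCPRP (−0.14, −0.73 to 0.46). Ifit1, which binds viral RNA, stood at 58.5, 59.02 and 109.6 CPM in UCS and 57.4, 36.3 and 76.8 CPM in UCPRP (−0.41, −1.22 to 0.39). Rsad2, the antiviral enzyme viperin, stood at 7.54, 6.53 and 6.996 CPM in UCS and 5.01, 4.16 and 5.603 CPM in UCPRP (−0.51, −1.44 to 0.42). Isg15 thus overlapped between the groups while Rsad2 did not. The list median was −0.35, and it was −0.15 without UCS replicate 3 and −0.16 without UCPRP replicate 2. Summed levels were 1347, 1239 and 2044 CPM in UCS and 1242, 889.6 and 1262 CPM in UCPRP, against 1402 to 1816 CPM in Vehicle and 2160 to 3415 CPM in Control.

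UCS replicate 3 held more of another interferon group, the genes induced by interferon-gamma, the interferon of T and NK cells. This list of 31 tested genes was drawn up after the values were seen and shares 4 genes with the list above and 2 with the chemokines. All 31 had a lower mean in UCPRP, and 8 (25.8%, against 5.73% of all genes) were below in all 3 libraries. These counts are no support, since the list was drawn up with the values known. The median was −0.79, and it was −0.25 without UCS replicate 3. Tgtp2 had a log2 fold change of −1.94 with and −0.75 without it, Cxcl9, which draws T cells, −2.10 and −0.05, and Gvin1, a very large inducible GTPase, −2.44 and −0.85. Gbp2, a guanylate-binding protein, had −1.40 and −0.29. Reads of the guanylate-binding, Tgtp and Gvin genes may be shared with their near-identical copies. A predicted gene, Gm40514, had 2026.81 estimated counts in UCS replicate 3 and 12.88 to 38.43 in the other 5 libraries.

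Markers of T and NK cells moved with the same library. All 14 tested had a lower mean in UCPRP (median −0.86), and the median was −0.08 without UCS replicate 3. Their summed level was 17.2, 20.35 and 49.4 CPM in UCS and 17.8, 14.4 and 21.6 CPM in UCPRP, and none of the markers was at 0 in any of the 6 libraries. Cd3g, a chain of the T cell receptor complex, stood at 1.06, 1.500 and 3.52 CPM in UCS and 0.8, 0.77 and 0.925 CPM in UCPRP, and the granule protease Gzma at 1.65, 2.04 and 3.06 CPM in UCS and 1.71, 0.873 and 1.08 CPM in UCPRP. MHC class II and dendritic cell genes showed the same pattern, with a median of −0.33 over 15 genes and 0.01 without UCS replicate 3. Cd74, the class II invariant chain, stood at 156, 213 and 400.1 CPM in UCS and 195, 173 and 189 CPM in UCPRP. The part of T and NK cells in the interferon values was not tested. Markers of B and plasma cells were too low for a list, with 2 of 8 tested.

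No inflammatory gene passed the test, and most had a lower mean in UCPRP. Of 26 inflammatory cytokine and receptor genes 23 were lower, with a median of −0.24 (−0.10 without UCS replicate 3). The 2 non-overlapping members (7.69%, near the 5.73% of all genes) were Osmr, the oncostatin M receptor, with 88.6, 71.9 and 84.8 CPM in UCS and 65.3, 59.1 and 68.3 CPM in UCPRP (−0.35), and the epithelial IL-1 family cytokine Il1f9 (−0.45). Il1b, the main IL-1 cytokine of myeloid cells, stood at 3.51, 6.21 and 24.9 CPM in UCS and 11.9, 9.45 and 6.68 CPM in UCPRP (−0.31, −2.26 to 1.65), an interval that reaches from over 4-fold lower to over 3-fold higher. Tnf stood at 15.5, 14.9 and 9.65 CPM in UCS and 15.6, 19.2 and 9.202 CPM in UCPRP (0.13, −0.63 to 0.90). Il6 had too few counts for the test, 4 over UCS and 1 over UCPRP, a ratio of 4.06 (95% interval 0.401 to 200, counting error only).

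Chemokines were lower in 21 of 28 cases, with Cxcl14 the 1 member above in all 3 UCPRP libraries and the monocyte attractants Ccl7 (−1.43) and Ccl12 (−1.06) the 2 below, shares of 3.57% and 7.14% that are near those of all genes. Their median went from −0.36 to −0.03 without UCS replicate 3 and to −0.59 without UCS replicate 2. Cxcl5, a neutrophil attractant, stood at 33.8, 28.6 and 53.98 CPM in UCS and 40.1, 28.3 and 29.6 CPM in UCPRP (−0.25, −1.33 to 0.83), where Vehicle had a mean of 166 ± 100.3 CPM. Ccl2, the main monocyte attractant, stood at 2.44, 1.88 and 6.38 CPM in UCS and 2.29, 1.03 and 2.67 CPM in UCPRP (−0.84, −2.25 to 0.58).

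Of 22 macrophage and monocyte genes 19 had lower means (median −0.18, −0.07 without UCS replicate 3 and −0.31 without UCS replicate 1), the non-overlapping one (4.55%) being the fractalkine receptor Cx3cr1 (12.2, 13.1 and 11.3 CPM in UCS and 10.8, 9.499 and 9.56 CPM in UCPRP, −0.30). Others lay near 0, with the lysozyme Lyz2 at −0.11 (−0.68 to 0.46) and Apoe, the lipid carrier, at 0.02 (−0.43 to 0.47). Neutrophil genes had a median of −0.30 over 10 tested that turned to 0.11 without UCS replicate 3; S100a8, a calcium-binding alarmin, stood at 1.17, 3.32 and 10.2 CPM in UCS and 7.58, 6.42 and 2.47 CPM in UCPRP (0.16, −1.59 to 1.92). Antimicrobial proteins went from −0.29 to −0.04 without that library, and Lcn2, an iron-chelator-binding protein, from −1.08 to 0.46. The defensin Defb14 was the exception above in all 3 UCPRP libraries, at 0.159, 0.321 and 0.46 CPM in UCS and 1.07, 0.513 and 0.771 CPM in UCPRP (1.30, 0.30 to 2.30). Complement genes were lower in 14 of 17 cases (median −0.14, −0.25 without UCPRP replicate 1 and −0.05 without UCPRP replicate 2), with C3, the central component, at −0.80 and at −0.07 without UCS replicate 3. Toll-like receptor genes had a median of −0.16 over 19 genes (−0.09 without UCS replicate 3), with the flagellin receptor Tlr5 at −0.55 without overlap.

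Immediate early genes, transcribed within minutes of a growth signal or stress, had higher means in UCPRP in 15 of 22 cases. Of these 4 (18.2%) were above in all 3 libraries, against 4.92% of all genes, and none below. The median was 0.18, 0.08 without UCPRP replicate 1 and 0.16 to 0.22 without any other library, and none was called. The 4 were Myc, the nuclear receptor Nr4a1 (6.695, 11.5 and 10.7 CPM in UCS and 13.8, 13.5 and 21.2 CPM in UCPRP, 0.74), the phosphatase Dusp1 (74.7, 108 and 88.2 CPM in UCS and 153, 148 and 125 CPM in UCPRP, 0.66), and Btg2, a brake on proliferation (0.20). Fos stood at 15.4, 15.3 and 16.3 CPM in UCS and 16.1, 19.7 and 19.9 CPM in UCPRP (0.25, −0.33 to 0.82) and Egr1 at 26.2, 37.1 and 36.8 CPM in UCS and 35.9, 43.4 and 48.8 CPM in UCPRP (0.36, −0.24 to 0.95), both with overlap. Fosl1, a member of the AP-1 family, had a lower mean and a wide interval (−0.82, −2.92 to 1.28).

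Serum response and YAP target genes, which follow actin tension, were higher in 14 of 18 cases with a median of 0.05, close to all genes (−0.06 without UCPRP replicate 1 and 0.00 without UCS replicate 3). The matricellular gene Ccn1 (50.00, 82.05 and 59.9 CPM in UCS and 109, 85.4 and 96.3 CPM in UCPRP, 0.60) and the LIM protein Fhl2 (3.56, 5.52 and 4.85 CPM in UCS and 10.6, 5.96 and 7.76 CPM in UCPRP, 0.80) lay above in all 3 UCPRP libraries and the cofactor Tead1 below (−0.24). Receptors and ligands lay near 0: the 31 genes of platelet-type growth factors and their receptors had a median of 0.00, none of them without overlap. In the EGF family 10 of 15 were lower (median −0.07, −0.15 without UCS replicate 2), and the receptor Egfr (149, 113 and 109 CPM in UCS and 103, 82.5 and 97.9 CPM in UCPRP, −0.39) and its ligand Tgfa (−0.35) were below in all 3.

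Matrix genes mostly had somewhat higher means in UCPRP. Of 26 genes of extracellular matrix and myofibroblasts 21 had higher means. Their median was 0.11 (0.04 to 0.23 with 1 library left out). It was 0.06 with the clock index as a covariate and 0.02, as for all genes, with the clock, lens and retina covariates together. Of the 26 genes 2 (7.69%, against 4.92% of all genes) lay above in all 3 libraries. The 2 were the fibrillar collagen Col1a1 (972, 1415 and 1361 CPM in UCS and 1633, 1751 and 1539 CPM in UCPRP, 0.39, −0.26 to 1.05) and the microfibrillar collagen Col6a1 (0.26). Col1a1 had 0.16 with the clock index as a covariate and 0.24 without UCS replicate 1, the library that clock genes set apart. Acta2, the actin of myofibroblasts, lay near 0 (0.01, −0.47 to 0.49), and the wound matrix protein Tnc stood at −0.28. TGF-beta signalling genes were split, 3 above and 3 below in all 3 libraries, with a median of 0.02. These shares were 13% each, against 4.92% above and 5.73% below for all genes. The epithelial-mesenchymal transition factors Snai1 (0.26), Snai2 (0.25) and Zeb1 (0.09) lay above. Smad4, Smad2 and Tgfbr2, which carry the signal, lay below (−0.14, −0.05 and −0.06). Zeb1, Smad2 and Tgfbr2 lay within the quartiles of all genes (−0.10 and 0.15). Matrix proteases and their inhibitors had a median of −0.06 over 23 genes (−0.16 without UCPRP replicate 1), with the gelatinase Mmp9 at 4.09, 15.00 and 15.5 CPM in UCS and 8.48, 14.4 and 10.8 CPM in UCPRP (−0.04, −1.15 to 1.08) and Mmp2 above in all 3 UCPRP libraries (0.26).

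**Figure D4:**
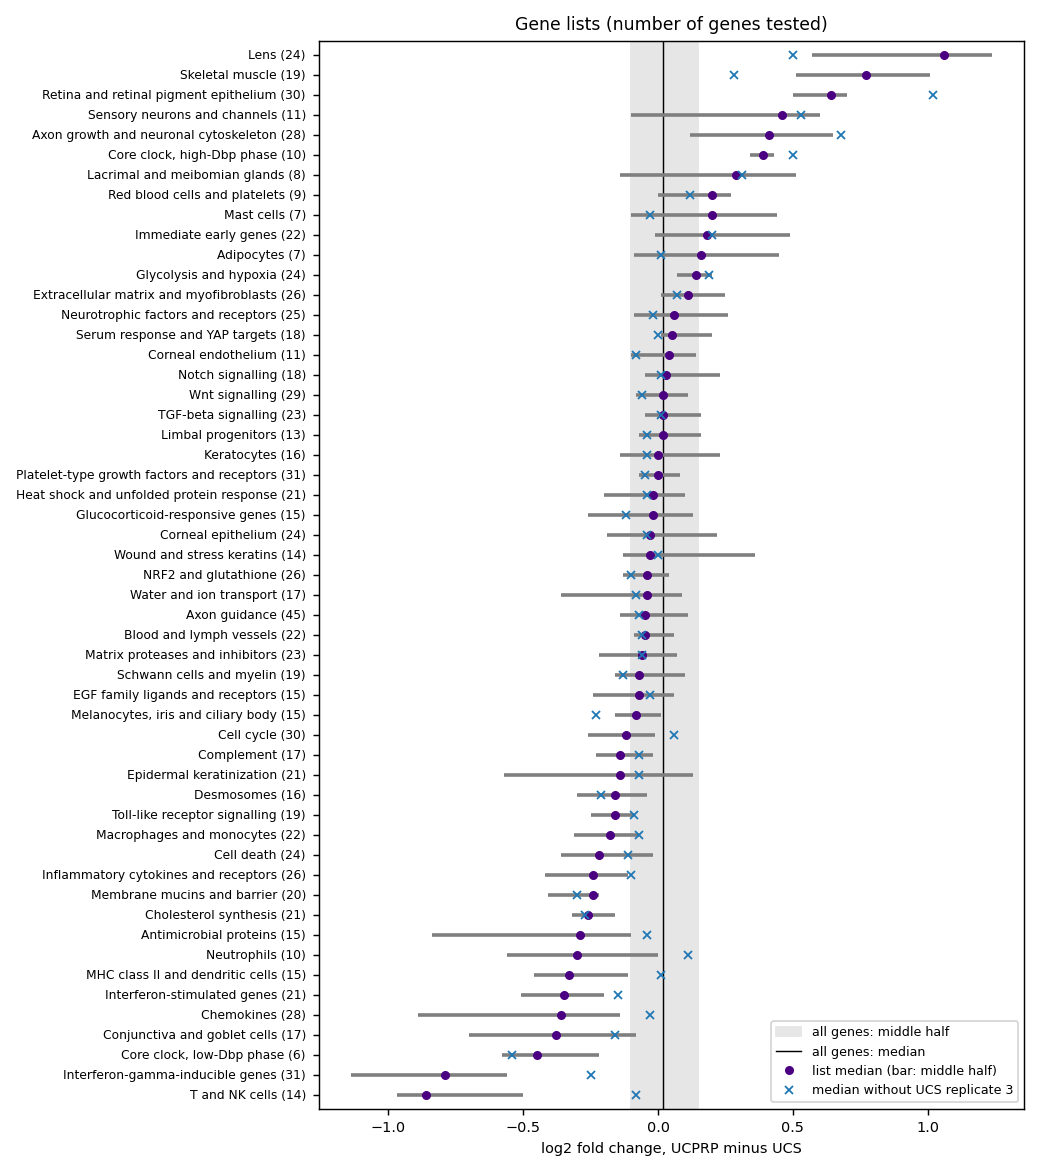
Median log2 fold change, UCPRP minus UCS, of the lists with at least 6 genes tested (dots; bars run from the lower to the upper quartile of each list, crosses the median without UCS replicate 3), beside the median and quartiles of all genes (line and grey band). Without that library the T and NK cell, chemokine and neutrophil medians were −0.08, −0.03 and 0.11, and those of membrane mucins, desmosomes and cholesterol synthesis −0.30, −0.21 and −0.27.

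Nerve genes are named in the title of the series, and several had higher means in UCPRP, together with retinal transcripts. Of 28 axon growth and neuronal cytoskeleton genes 22 were higher with a median of 0.41, but none was without overlap and none was called. The median was 0.15 without UCPRP replicate 3, 0.24 without UCS replicate 1, 0.66 without UCPRP replicate 1 and 0.68 without UCS replicate 3. The neurofilament Nefl stood at 19.3, 26.1 and 35.2 CPM in UCS and 17.6, 64.1 and 83.6 CPM in UCPRP (1.04, −0.21 to 2.28), and the neuronal tubulin Tubb3 at 8.08, 8.19 and 10.8 CPM in UCS and 8.27, 17.2 and 22.5 CPM in UCPRP (0.82, 0.01 to 1.64). Nefl and the sum of the retina list were both lowest in UCS replicate 1 and UCPRP replicate 1, and Nefl, Tubb3 and that sum were all highest in UCPRP replicate 3 and next in UCPRP replicate 2. Retinal neurons also express these genes. With the retina list as a covariate the list median was 0.01 and the log2 fold changes were 0.22 for Nefl and 0.38 for Tubb3. Because all 30 retina genes also had higher means in UCPRP, that covariate takes up part of the group difference. The part of retina in these values was not tested. Gap43, the growth cone protein of regrowing axons, stood at 5.68, 10.02 and 8.89 CPM in UCS and 6.99, 11.7 and 10.9 CPM in UCPRP (0.27, −0.29 to 0.83), and at 0.05 with that covariate.

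Sensory neuron and channel genes had a median of 0.46 over 11 of 18 genes with enough counts. That median was 0.02 without UCPRP replicate 3, 0.23 without UCS replicate 1, and 0.02 with the retina list as a covariate. The part of retina in it was not tested. The mechanosensitive channel Piezo2 stood at 11.4, 14.2 and 11.3 CPM in UCS and 14.3, 9.601 and 15.9 CPM in UCPRP (0.11, −0.30 to 0.52). The warmth-gated epithelial channel Trpv3 was below in all 3 UCPRP libraries (3.88, 2.89 and 4.39 CPM in UCS and 2.77, 2.36 and 2.21 CPM in UCPRP, −0.60), as was Trpv2 (−0.28), and P2rx3, the ATP receptor of nociceptors, was above at a low level (1.44, 1.71 and 1.43 CPM in UCS and 2.19, 2.36 and 2.37 CPM in UCPRP). Neurotrophic factors and receptors had a median of 0.06 over 25 genes with none without overlap, and of −0.12 without UCPRP replicate 1 and −0.02 without UCS replicate 3. Cntfr, the receptor for ciliary neurotrophic factor, stood at 18.5, 24.7 and 22.6 CPM in UCS and 24.2, 26.5 and 30.7 CPM in UCPRP (0.31, −0.02 to 0.64). Axon guidance genes had a median of −0.05 over 45 genes with 3 (6.67%, near the 5.73% of all genes) below in all 3 libraries, Sema4d (−0.35), Epha4 (−0.29) and Plxnb1 (−0.25), and none above. Schwann cell and myelin genes had a median of −0.07 over 19 (−0.25 without UCPRP replicate 1 and 0.03 without UCPRP replicate 2), with the myelin protein Mbp at −0.17 (−0.52 to 0.17).

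Cholesterol synthesis was the list with the largest share of non-overlapping members among those named here. Of 21 genes 20 had lower means in UCPRP, and 11 (52.4%) were below in all 3 libraries, a share that is 5.73% over all genes. The median was −0.26 and ran from −0.32 to −0.21 with 1 library left out; it was −0.22, −0.21 and −0.16 with the clock, lens and retina covariates, and −0.11 with the 3 together. None was called. Idi1, an isomerase of the mevalonate pathway, stood at 47.7, 44.2 and 34.7 CPM in UCS and 26.4, 33.1 and 30.5 CPM in UCPRP (−0.49, −1.05 to 0.07), and the demethylase Cyp51 at 203, 191 and 214 CPM in UCS and 165, 141 and 159.6 CPM in UCPRP (−0.39, −0.77 to −0.00). Srebf2, a transcription factor of sterol genes, had a difference of −0.13. Summed levels were 3055 to 3542 CPM in UCS, 2581 to 2971 CPM in UCPRP and 2752 to 3773 CPM in Vehicle.

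Glycolysis and hypoxia genes were higher in 20 of 24 cases with a median of 0.14 (0.09 to 0.20 with 1 library left out), and Aldoa (0.22) and Gpi1 (0.11), enzymes of glycolysis, were above in all 3. Cell cycle genes were lower in 25 of 30 cases with a median of −0.12, which became 0.06 without UCS replicate 3. Mki67, the proliferation marker, stood at 81.5, 64.05 and 106 CPM in UCS and 77.2, 44.98 and 49.97 CPM in UCPRP (−0.54, −1.43 to 0.34), while Ccnd1, the cyclin of entry into the cycle, was above in all 3 UCPRP libraries (197, 182 and 187 CPM in UCS and 235, 212 and 201 CPM in UCPRP, 0.20). Cell death genes had a median of −0.22 over 24 (−0.11 without UCS replicate 3), with 4 (16.7%) below in all 3, among them the initiator caspase gene Casp8 (−0.35) and the kinase gene Ripk1 (−0.24).

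The clock ran alongside the comparison. All 10 genes of the phase with high Dbp had higher means in UCPRP (median 0.39) and 5 of 6 genes of the opposite phase lower means (median −0.45). Without UCS replicate 1 the medians were 0.07 and 0.03, and with a clock index as a covariate 0.05 and 0.06. The index is built from these same genes, so small medians with it were fixed in advance and are no result. Arntl, which drives the clock, stood at 44.7, 13.6 and 22.01 CPM in UCS and 9.12, 21.7 and 24.4 CPM in UCPRP (−0.54, −1.83 to 0.75). Nr1d1, which represses Arntl, had 0.33 (−0.98 to 1.65) and Per2 0.43 (−0.86 to 1.72). Of the genes ranked first, Cxcl14 had 0.92, Myc 0.68, Ehf −0.48 and Muc4 −0.52 with the clock index as a covariate, near their values without it. That index left 243 genes at an unadjusted p under 0.05 in place of 393, where 806 are given by chance. The part of the clock in that change was not tested.

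Lens, retina and skeletal muscle transcripts had higher means in UCPRP and varied widely within both groups. Of 24 lens genes 23 were higher in UCPRP with a median of 1.06, and none was without overlap; the median was 6.66 without UCS replicate 2 and −0.97 without UCPRP replicate 3. Summed lens levels were 313.7, 16186 and 234.8 CPM in UCS and 4283, 560.9 and 34210.5 CPM in UCPRP; of the tested markers Cryge was at 0 in UCS replicate 1 and Crygf in UCS replicates 1 and 3. All 30 retina genes were higher (median 0.64, 0.34 to 1.02 with 1 library left out), none without overlap and none at 0, with sums of 6327, 7977 and 12455 CPM in UCS and 6561, 15395 and 19037 CPM in UCPRP. Skeletal muscle genes were higher in 18 of 19 cases (median 0.77), a median that was −0.05 without UCPRP replicate 1; their sums were 372.6, 533.5 and 92.5 CPM in UCS and 957.8, 658.3 and 33.8 CPM in UCPRP, and Myh4 was at 0 in UCPRP replicate 3. Genes of melanocytes, iris and ciliary body went the other way, lower in 11 of 15 cases with a median of −0.08 (−0.32 without UCPRP replicate 1 and 0.04 without UCPRP replicate 3).

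With the lens list as a covariate, the log2 fold changes of genes ranked first were 0.80 for Cxcl14, 0.73 for Myc, −0.43 for Ehf and −0.52 for Muc4; with the retina list they were 0.84, 0.75, −0.44 and −0.51. The part of lens, retina and clock in the other differences was not tested gene by gene. With the clock index and both lists as covariates together, edgeR called 0 genes and 249 had an unadjusted p under 0.05. In that fit several genes ranked first lay nearer 0: Cxcl14 (0.75), Spry2 (0.35), Ehf (−0.36), Muc4 (−0.42), Mst1r (−0.27), Fcgbp (−0.50) and Duox2 (−0.54). Others lay further from 0: Myc had 0.74, Lrrc17 −0.97, Rnf43 −0.50 and Entpd4 1.58. Without covariates these others had 0.69, −0.73, −0.46 and 1.49.

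**Figure D5:**
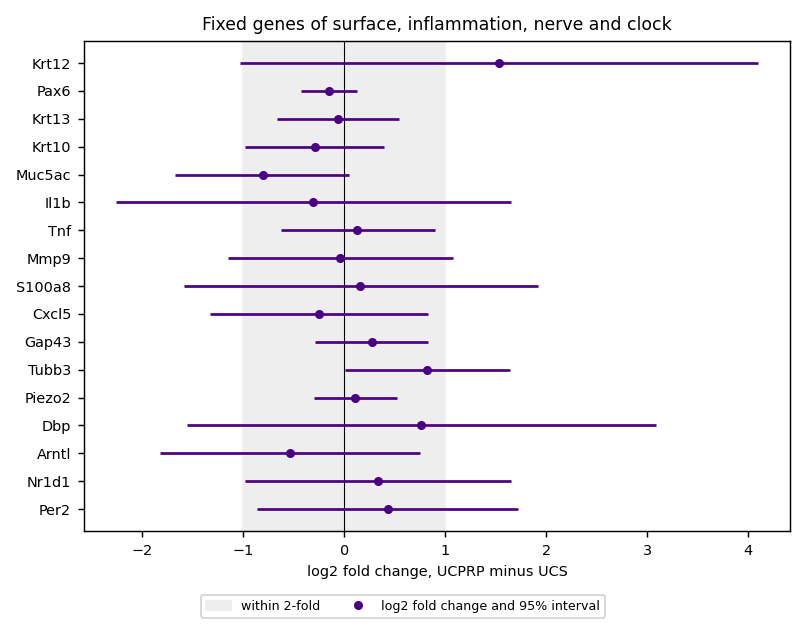
Log2 fold change, UCPRP minus UCS, with its 95% interval for 17 genes of surface, inflammation, nerve and clock; the grey band is a 2-fold change in either direction. The intervals of Pax6, Gap43 and Piezo2 lie within the band, while those of Krt12, Il1b, S100a8 and Dbp leave it on both sides.

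A set of genes fixed for the injury and its treatment thus divides by precision. Pax6 (−0.15, −0.43 to 0.13), Krt13 (−0.67 to 0.54), Tnf (−0.63 to 0.90), Gap43 (−0.29 to 0.83) and Piezo2 (−0.30 to 0.52) had intervals inside a 2-fold change. Krt12, Il1b (−2.26 to 1.65), S100a8 (−1.59 to 1.92), Mmp9 (−1.15 to 1.08) and Dbp (−1.56 to 3.09) had intervals that reach past 2-fold both ways, so neither a difference nor its absence can be read for them. An adjusted p of 0.985 or more does not show that the biologics act alike.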

How the data were processed

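RNA of pooled corneas was extracted with an RNeasy kit and made into stranded total RNA libraries, per the labels' protocols. The authors deposited 1 table of estimated counts per gene, called read counts per the file headers; values have decimals (64.9% were whole) and are not scaled to library size. HISAT and GRCm38 are named in the submitters' processing notes; no counting tool, annotation or strand setting is given in the sources used here. Genes with near-identical copies or antisense partners are therefore uncertain. Counts were rounded, filtered with filterByExpr (minimum count 10) and scaled with TMM, with 1 term per group over all 12 libraries (common biological coefficient of variation 0.227). UCPRP minus UCS was tested by edgeR 4.0.16 in R 4.3.3 (quasi-likelihood F test, robust), with Benjamini-Hochberg adjustment over 16124 genes and a call at an adjusted p under 0.05. The script was tested on simulated data. Intervals use the standard error implied by the F statistic. DESeq2 1.42.0 and limma 3.58.1 (voom), other scalings and filters, covariates, a replicate block and fits without 1 library were alternatives. Library totals are in the report; p-values measure the spread between pools.

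With 0 genes called, the naming rule gave 10 genes in each direction by lowest unadjusted p (mean of at least 5 CPM, no overlap), a fixed set, and for each list its member of lowest p and of highest level. The 54 lists held 1043 symbols, of which 1025 were found, 4 by a synonym. Members and lists were chosen with earlier results of these data known, and a list of interferon-gamma-inducible genes was added after the values were seen. Coordinates and promoter sequences come from RefSeq for GRCm38.p6, which matched 19644 of 19702 genes. The lens, retina and skeletal muscle covariates are the mean log2 CPM of each list in a library, and the clock index is the mean of one clock phase minus that of the other. Some genes that the rule named are not reported here.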

Additional observations from a re-analysis of the deposited data

How the results depend on the processing

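No gene was called in either direction under any of the 18 alternatives. The count at an unadjusted p under 0.05 was 393 (138 higher and 255 lower) and moved with the setting. It was 481 with DESeq2, 364 with limma-voom, 429 (110 and 319) with relative log expression size factors, 460 without the filter, and 778 (166 and 612) in the 6 libraries alone. With 1 library left out it ran from 261 (without UCPRP replicate 3) to 794 (without UCPRP replicate 1, 490 and 304), with 592 without UCS replicate 2, 263 without UCS replicate 3 and 267 without UCPRP replicate 2. It was 243, 182, 417 and 409 with the clock, lens, retina and muscle covariates, and 391 with lens and retina genes removed. Chance gives 806 in the main fit, 789 in the 6 libraries alone and 815 without UCPRP replicate 1. The replicate block gave 0 called genes and 335 at that p; the replicate numbers are not taken as pairs, since the deviations of same-numbered libraries correlated at 0.353, −0.33 and 0.256. Of 132 named genes tested 91 kept their sign under every alternative and 41 did not; Il6 was too low to test. Of 2369 values 2308 lay within 1 standard error of the value reported. The alternatives refit the same libraries, so kept signs and close values are no independent support. The number of pools and, below 10 CPM, the counts limit what could be seen.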

Other observations

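Several gene lists not described above had medians near that of all genes, which does not show that their genes are alike in both groups. Of 16 keratocyte genes 8 had higher and 8 lower means in UCPRP, with a median of 0.00, and the proteoglycan gene Lum stood at 0.24 (−0.29 to 0.76). Corneal endothelium genes had a median of 0.04 over 11, with the collagen Col8a2 at 410.4, 369 and 263 CPM in UCS and 327, 343 and 284 CPM in UCPRP (−0.13, −0.56 to 0.31). Blood and lymph vessel genes had a median of −0.05 over 22, with the endothelial adhesion gene Pecam1 at −0.23 (−0.56 to 0.09). Wnt and Notch signalling genes had medians of 0.02 (29 genes) and 0.03 (18 genes). Notch1 and Notch3, receptors of the Notch pathway, were below in all 3 UCPRP libraries (−0.28 and −0.29) and the target Hey1 above (0.43). These are 11.1% and 5.56% of the Notch list, against 5.73% below and 4.92% above for all genes. NRF2 and glutathione genes had a median of −0.04 over 26 and water and ion transport genes of −0.04 over 17. With 1 library left out these medians moved to at most 0.19 (keratocytes, without UCPRP replicate 3) and at least −0.14 (vessels, without UCPRP replicate 1).

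The 21 genes of heat shock and the unfolded protein response had a median of −0.02, with 9 higher and 12 lower means in UCPRP. Of these 4 (19%) were below in all 3 UCPRP libraries and none above. They were Hspa5, a chaperone of the endoplasmic reticulum, with 438, 394 and 469 CPM in UCS and 374, 329 and 341 CPM in UCPRP (−0.32, −0.69 to 0.05), Hsp90b1 (−0.28), Sdf2l1 (−0.60) and Creld2 (−0.20). The heat shock genes Hspa1a and Hspb1 of the cytosol stood at 0.15 and 0.14. These genes were singled out after their values were seen.

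The lowest unadjusted p of all genes belonged to Otp, a homeobox gene of the hypothalamus, with 55 counts over UCS and 3 over UCPRP (ratio 18.6, 95% interval 6.04 to 92.9, counting error only; edgeR adjusted p 0.985). Avp, the vasopressin gene, had 38 counts over UCS and 1 over UCPRP (ratio 38.5, interval 6.51 to 1.56e+03). Both were present in all 3 UCS libraries, Otp at 1.49, 0.643 and 0.817 CPM and Avp at 0.744, 0.696 and 0.613 CPM, and both were chosen after their values were seen.

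Some growth factor genes varied between libraries more than between groups. Igfbp7, which binds insulin-like growth factors, stood at 258, 599 and 226 CPM in UCS and 549, 257 and 899 CPM in UCPRP, and Wnt7b at 27.1, 61.2 and 23.2 CPM in UCS and 59.6, 28.96 and 119.9 CPM in UCPRP. Both were highest in UCPRP replicate 3, UCS replicate 2 and UCPRP replicate 1, the 3 libraries with the most Cryaa; the part of lens tissue in these levels was not tested.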
